A study of Mus musculus with 6 samples.

Results

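Type IV collagen is encoded by 6 genes in the mouse, *Col4a1* to *Col4a6*, and their RNA was followed here in OS3 glial cells with and without the H3.3K27M mutation. These genes are 6 of the 22911 genes that could be named on the array, and they were chosen because *Col4a1* and *Col4a2* fell strongly together in the mutant cells. The difference between the mutant and control arrays therefore chose them, so their values are given as a description and carry no test. Each chain was found through the RefSeq accession of its probe, which gave 7 probes in all, 2 of them for *Col4a5*. Of the 6 genes, 4 (*Col4a1*, *Col4a2*, *Col4a5*, and *Col4a6*) had a probe that passed the filter on dim probes, and *Col4a3* and *Col4a4* did not.

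OS3 is a line of glial cells from the brain of newborn C3H/HeN mice (C3H and male per the labels), immortalized with SV40. The study compared 3 arrays of OS3 cells transfected with an empty vector (OS3-vector, called WT) with 3 arrays of OS3 cells carrying a plasmid for H3f3a with the K27M mutation (OS3-H3F3A_K27M, called IG27). Both lines share the SV40 background, and both were grown for 2 days in the same serum-containing medium before total RNA was extracted. Lines were established as clones by drug selection after transfection, and the labels do not tell whether the IG27 arrays came from more than 1 clone or from separate cultures. Tests between the groups therefore measure the spread between samples of 1 line each, and a difference between the lines that came with cloning and one that came with the mutation cannot be told apart.

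Type IV collagen is the network-forming collagen of basement membranes, the thin sheets of matrix that underlie epithelia and endothelia and surround vessels in the brain. The chains fold in the endoplasmic reticulum into triple helices, which are secreted and joined through their ends into a sheet to which laminin, nidogen, and perlecan are linked. The chains of *Col4a1* and *Col4a2* form the helix found in almost all basement membranes, whereas those of *Col4a3*, *Col4a4*, *Col4a5*, and *Col4a6* are restricted to certain tissues, such as the kidney glomerulus. The genes lie in head-to-head pairs, and in each pair they are transcribed in opposite directions.

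The pair *Col4a1* and *Col4a2* shares its promoter, and the sequence is shown because the fall of both genes was the basis for looking at the family. The RefSeq windows, each from 250 bases before to 50 bases after the annotated start (GRCm38.p6), lay at chr8:11312777-11313076 on the minus strand for *Col4a1* and chr8:11312555-11312854 on the plus strand for *Col4a2*. Both are written 5′ to 3′ on the strand of their gene, and capitals mark the 78 bases that the windows share.
Col4a1: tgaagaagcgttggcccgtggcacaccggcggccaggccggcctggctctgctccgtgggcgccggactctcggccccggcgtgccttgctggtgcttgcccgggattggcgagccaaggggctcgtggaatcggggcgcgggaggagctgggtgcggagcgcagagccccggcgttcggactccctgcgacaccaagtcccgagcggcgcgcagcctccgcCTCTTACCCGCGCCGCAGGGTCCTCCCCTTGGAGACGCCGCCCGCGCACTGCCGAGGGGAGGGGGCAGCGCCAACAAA
Col4a2: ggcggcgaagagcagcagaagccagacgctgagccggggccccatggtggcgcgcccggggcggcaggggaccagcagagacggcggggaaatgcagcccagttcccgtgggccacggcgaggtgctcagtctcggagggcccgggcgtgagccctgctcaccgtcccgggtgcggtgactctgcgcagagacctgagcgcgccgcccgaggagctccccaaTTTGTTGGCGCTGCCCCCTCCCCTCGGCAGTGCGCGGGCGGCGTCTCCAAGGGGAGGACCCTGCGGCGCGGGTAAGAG
The capital stretch of one window is the reverse complement of that of the other, and the annotated starts lay 21 bases apart. The *Col4a1* window was 74% G and C with 37 CpG, more CpG than in 94.4% of the 32851 windows of the table. The *Col4a2* window was 73.7% G and C with 33 CpG, more than in 91.4%. The median window held 52.7% G and C and 7 CpG. By contrast, the starts of *Col4a5* and *Col4a6* lay 1343 bases apart on chromosome X, and their windows held 11 and 3 CpG.

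Simple motifs were searched as exact letters on both strands. The TATA box (TATAAA) was in 13.6% of all windows and in none of the 5 windows of the family (*Col4a3* had none in the table). The letters CCAAT were in 37.4% of all windows, with 1 match each in *Col4a1*, *Col4a2*, and *Col4a5*. The GC box (GGGCGG), in 35.7% of all windows, matched 1 time in *Col4a1*, 3 times in *Col4a2*, and 1 time each in *Col4a5* and *Col4a6*. The letters CCCTCCCC, the core of the CTC box known from the promoter of this pair, were in 10.8% of all windows and matched 1 time each in *Col4a1*, *Col4a2*, and *Col4a5*. In the pair, the CCCTCCCC match starts at base 278 of the *Col4a1* window and base 238 of the *Col4a2* window, and these are the same bases read from opposite strands. One GC box is shared in the same way (base 260 and base 258). These are matches of letters, not measured binding.

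*Col4a1* gave a bright signal in WT cells and none well above background in IG27 cells. Values are log2 of the processed signal minus the 75th percentile of the array, called normalized intensity below. *Col4a1* was 3.41, 3.33, and 3.44 in the WT arrays and -7.33, -6.78, and -7.58 in the IG27 arrays. The groups did not overlap. The difference of IG27 minus WT was -10.62 (SE 0.24), with means of 3.40 ± 0.05 (SD, n = 3) and -7.23 ± 0.41 (SD, n = 3). In processed signal, before log2 and scaling, the WT arrays read 11391, 10506, and 10720 and the IG27 arrays 6.83, 10.3, and 5.23. Feature Extraction, the scanner software, called the probe well above background in 3 of 3 WT arrays and in 0 of the 2 IG27 arrays that have the flag. The level in IG27 cells is therefore only a bound, and *Col4a1* was at least 431-fold lower in IG27 cells, counted against the lowest signal that was well above background on each array. In such bulk samples, fewer cells of a type and less RNA per cell cannot be told apart.

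*Col4a2* was likewise bright in WT cells and not well above background in IG27 cells, with 1 IG27 array that stood apart. Its normalized intensity was 2.20, 2.21, and 2.22 in the WT arrays and -7.64, -5.72, and -7.66 in the IG27 arrays. IG27 replicate 2 was the high one, yet it stayed far below every WT array. The difference was -9.22 (SE 0.64), with means of 2.21 ± 0.01 (SD, n = 3) and -7.01 ± 1.11 (SD, n = 3). In processed signal the WT arrays read 4914, 4830, and 4598 and the IG27 arrays 5.51, 21.5, and 4.93. The probe was well above background in 3 of 3 WT arrays and 0 of 2 flagged IG27 arrays, and RNA of the gene was at least 189.7-fold lower. The value of replicate 2 came from the deposited value table, since its scanner output holds only 285 of 62976 spots and no flag for these probes.

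The IG27 signal of the pair could be set against the negative control spots, which match no mouse transcript. Each complete array had 308 of them. Their 5th to 95th percentile ran from 5.47 to 8.08 in IG27 replicate 1 and from 4.90 to 7.15 in IG27 replicate 3. Both *Col4a1* and *Col4a2* lay inside this range on both arrays, whereas on all 3 WT arrays they lay above the highest negative control spot. RNA of the pair was thus not detectable above background on IG27 replicates 1 and 3, which is not a measured absence. IG27 replicate 2, with its incomplete scanner output, was left out of this comparison. Its processed signals, 10.3 for *Col4a1* and 21.5 for *Col4a2*, lay above the ranges of both other IG27 arrays.

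**Figure D1:**
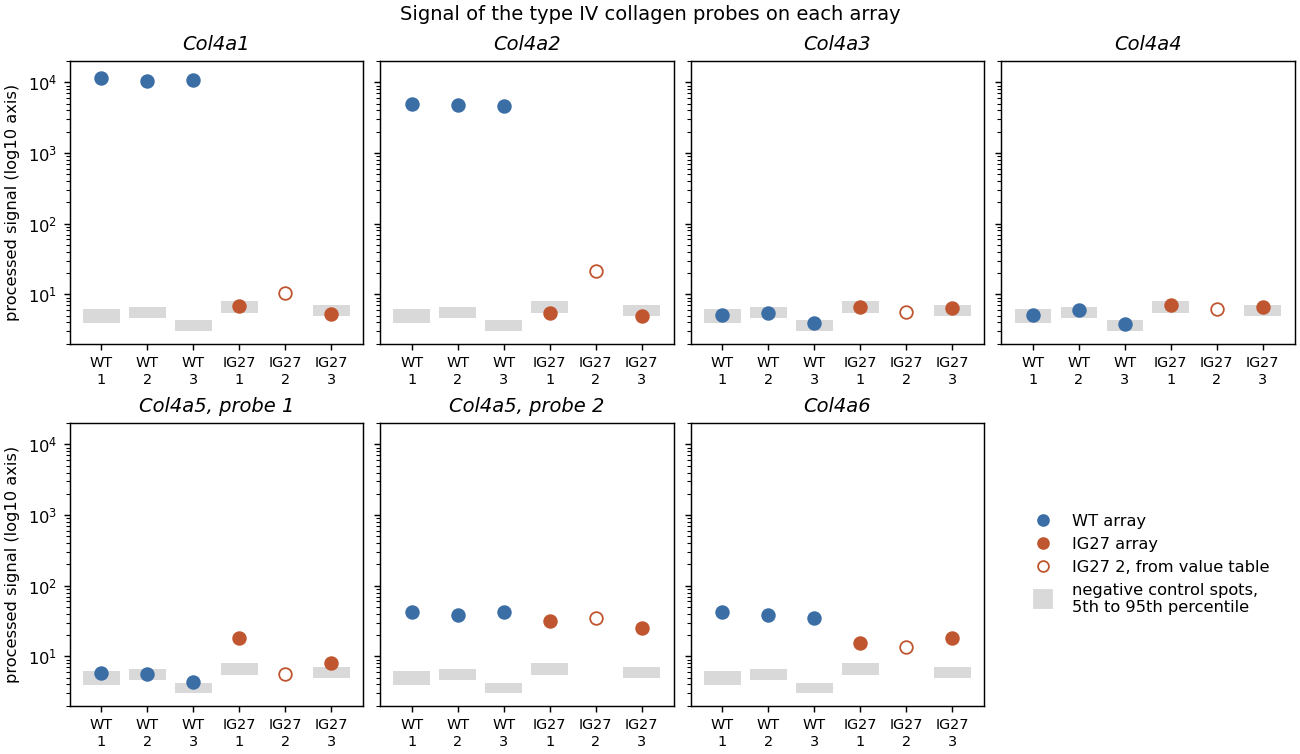
Processed signal (log10 axis) of each of the 7 type IV collagen probes on the 3 WT arrays (blue) and 3 IG27 arrays (orange, IG27 replicate 2 open because it came from the value table). Gray bars are the 5th to 95th percentile of the negative control spots of the array. *Col4a1* and *Col4a2* dropped from 4598 or more on every WT array to 21.5 or less on every IG27 array.

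*Col4a3* and *Col4a4*, whose chains join that of *Col4a5* in the kidney filter, were not well above background on any array with flags. *Col4a3* was -7.74, -7.56, and -7.96 in the WT arrays and -7.40, -7.67, and -7.28 in the IG27 arrays. *Col4a4* was -7.73, -7.44, and -8.01 in the WT arrays and -7.29, -7.54, and -7.22 in the IG27 arrays. The groups overlapped for both genes, and on all 5 complete arrays the signal lay within the 5th to 95th percentile of the negative controls. No fold is given, because both sides are at background.

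*Col4a5* was measured by 2 probes that disagreed. The brighter one, designed to NM_001163155, was -4.66, -4.76, and -4.52 in the WT arrays and -5.11, -5.03, and -5.31 in the IG27 arrays. The groups did not overlap, and the difference was -0.51 (SE 0.11). This probe was well above background in 3 of 3 WT arrays and 1 of 2 flagged IG27 arrays, at a processed signal of 38.5 to 43.1 in WT cells and 25.1 to 34.6 in IG27 cells. The other probe, to NM_007736, was -7.55, -7.52, and -7.81 in the WT arrays and -5.90, -7.65, and -6.97 in the IG27 arrays. It was well above background on none of the flagged arrays, its groups overlapped, and its difference of 0.78 (SE 0.52) ran the other way.

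*Col4a6*, which shares the X-linked locus with *Col4a5*, was dim in WT cells and dimmer in IG27 cells. Its normalized intensity was -4.67, -4.77, and -4.82 in the WT arrays and -6.15, -6.39, and -5.80 in the IG27 arrays. The groups did not overlap, and the difference was -1.36 (SE 0.18). The probe was well above background in 3 of 3 WT arrays and 0 of 2 flagged IG27 arrays, so the fold is a bound of at least 1.52 (IG27 cells lower). The processed signal was 35.0 to 42.0 in WT cells and 13.5 to 17.9 in IG27 cells, and it lay above the 95th percentile of the negative controls on all 5 complete arrays. The size of this difference leaned on the processing, as it was -0.41 with a normexp background correction that adds an offset of 50. The difference of the bright *Col4a5* probe was -0.25 with the same correction. The offset is larger than the processed signal of either probe on any array. Its part in the smaller differences was not separated from that of the correction.

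Across the array, 14898 named genes passed the filter and 70.5% of them differed at an adjusted p under 0.05 (limma, Benjamini-Hochberg adjustment), 30.5% higher and 40% lower in IG27 cells. Groups without overlap were found for 75.7% of the genes, 42.4% being lower and 33.4% higher in IG27 cells. The median difference over all genes was -0.07. Because the 4 genes were picked by their contrast, their counts are not read against these shares. The counts of the lists below stand beside these shares, and no list was tested against them. With 70.5% of all genes called, a list with most of its genes called is not set apart by that. Some listed genes passed the filter only through the group where they were high, and they are in the counts. These lists were written by hand from known roles, with earlier results of these data known.

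Genes whose profile over the 6 arrays came nearest to *Col4a1* and *Col4a2* were sought by the Euclidean distance of mean-centered values among 14885 genes. For *Col4a1* they were *Gm10487* (distance 0.791), *Slc44a5* (1.84), *Col4a2* (2.02), *Ppp1r9a* (2.25), and *Cyb5b* (2.35). For *Col4a2* they were *Slc44a5* (1.82), *Ppp1r9a* (1.85), *Gm10487* (1.85), *Cyb5b* (1.87), and *Pantr1* (1.90). All of them were well above background in the 3 WT arrays and in 0 of 2 flagged IG27 arrays. The IG27 part of these profiles is therefore signal not well above background, and the distances are a description of 6 values. The pair was chosen for falling strongly together, so the place of *Col4a2* near *Col4a1* is no result. *Slc44a5*, *Ppp1r9a*, and *Cyb5b* have 2 probes each on the array. Only the brightest one that passed the filter was used here, and the other was not compared.

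Laminins are the other network of basement membranes and moved both ways. Of 11 laminin chain genes, 8 were tested, 4 rose, 2 fell, and 2 did not pass, with a median difference of 0.00. Over all genes, 30.5% rose and 40% fell. *Lamb1*, the beta chain of the common laminins, was 1.92, 1.96, and 1.90 in the WT arrays and 4.96, 4.94, and 4.96 in the IG27 arrays. It rose by 3.03 (limma adjusted p 9.87e-08), and its 3 probes ran from 2.46 to 3.17. *Lama4*, found in vessel basement membranes, rose by 1.78 (limma adjusted p 1.93e-06). *Lama3* rose to a bound of at least 2.58-fold higher in IG27 cells, while its other probe was not well above background. *Lamc1*, the common gamma chain, differed by 0.23 (limma adjusted p 0.0392) but by -0.014 with the median of the array in place of the 75th percentile. Its call was also lost without any 1 of the arrays other than WT replicate 3, at 0.18 to 0.25. *Lamb2* fell by 1.88 and *Lama5* fell by 1.11 on the log2 scale. *Lama1* was not well above background in either group.

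The components that link type IV collagen to the laminin network differed in direction. *Nid1*, encoding nidogen, the linker between both networks, was 0.18, 0.02, and 0.07 in the WT arrays and 2.68, 2.68, and 2.63 in the IG27 arrays. It rose by 2.58 (limma adjusted p 3.42e-07), without overlap of the groups. *Nid2*, the other nidogen, fell by 0.45 on the log2 scale (limma adjusted p 8.48e-04). *Agrn*, encoding agrin, gave 0.09 and did not pass. *Hspg2*, encoding the proteoglycan perlecan, differed by 0.22 (limma adjusted p 0.00837), which turned to -0.020 with the median scaling. Among 19 basement membrane genes other than laminins and type IV collagen, 13 were tested, 5 rose, 6 fell, and 2 did not pass, with a median of -0.12. *Col15a1*, a collagen at the outer face of basement membranes, was at least 9.75-fold higher at 1 probe, while the groups overlapped at its other probe (well above background on 1 of 3 WT arrays). *Ntn4* was at least 2.14-fold higher and *Tinagl1* rose by 2.65. *Fras1*, which anchors the epidermal basement membrane, was at least 15.8-fold lower, *Egflam* at least 2.70-fold lower, and *Smoc1* fell by 2.09 on the log2 scale. With the filter narrowed to probes seen above background on all complete arrays, 6 genes of this list were called, 3 in each direction, against 11 before.

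**Figure D2:**
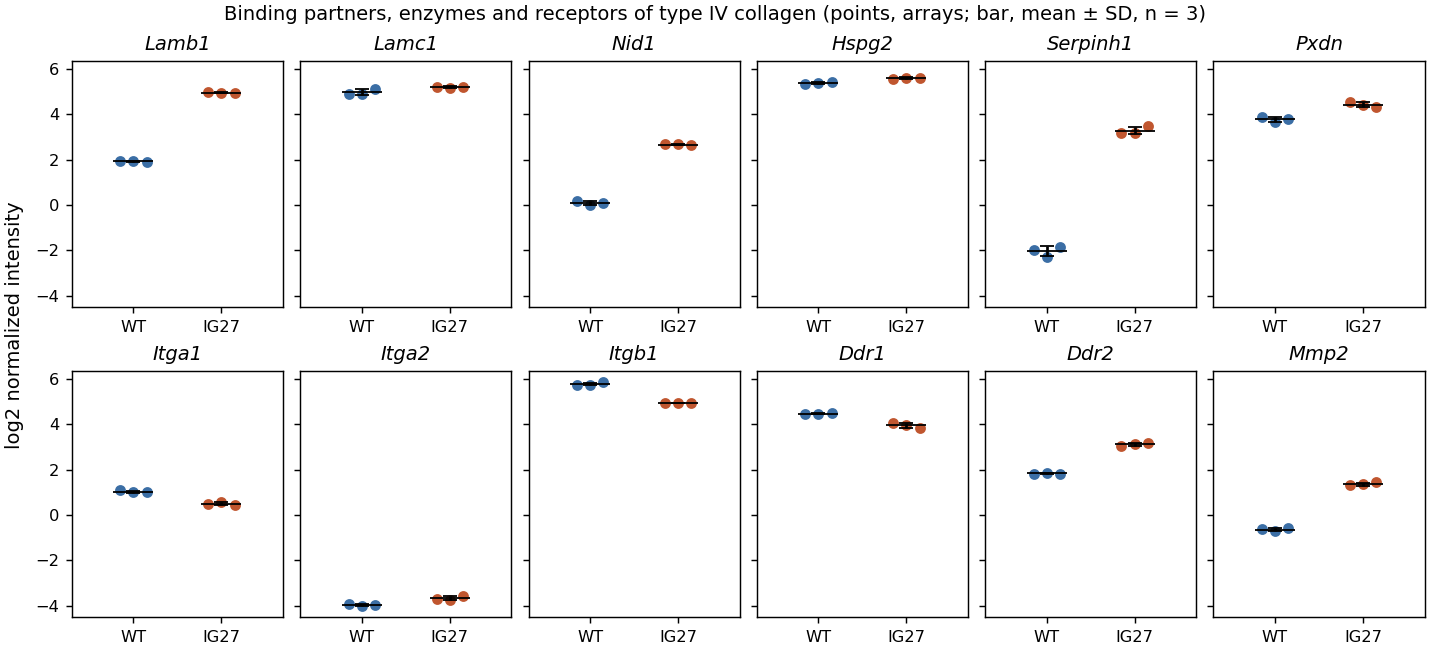
Normalized intensity (log2) of 12 tested binding partners, enzymes, and receptors of type IV collagen in WT (blue) and IG27 (orange) cells. Points are arrays and bars the mean ± SD (n = 3). The groups did not overlap for any of the 12 genes, as for 75.7% of all genes tested. *Itgb1*, *Itga1*, and *Ddr1* sat lower in every IG27 array than in any WT array, and the other genes higher.

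The machinery that folds and secretes collagen held a pair of large rises. *Serpinh1*, encoding the collagen chaperone HSP47, was -1.97, -2.29, and -1.87 in the WT arrays and 3.19, 3.18, and 3.46 in the IG27 arrays. It rose by 5.32 (limma adjusted p 5.52e-07). *P3h3*, a member of the prolyl 3-hydroxylase family, rose by 5.43 (limma adjusted p 9.87e-08), and *P4ha2*, a prolyl 4-hydroxylase subunit, rose by 1.96. *Plod3*, a lysyl hydroxylase and glycosyltransferase that modifies type IV collagen, fell by 0.78, *Ppib*, a prolyl isomerase, fell by 0.72, and *P4ha3* fell by 0.69 on the log2 scale. Of the 26 genes of this list, 23 were tested, 7 rose, 10 fell, and 6 did not pass, with a median of -0.14. The share called over all genes was 70.5%.

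Cross-linking enzymes were split. *Pxdn*, encoding peroxidasin, which makes the sulfilimine bonds of type IV collagen, rose by 0.64 (limma adjusted p 5.15e-04). *Tgm2*, a transglutaminase, rose by 0.93. The lysyl oxidase family members *Loxl1*, *Loxl4*, and *Loxl3* fell by 1.97, 1.77, and 0.73 on the log2 scale, and of the other probes of *Loxl4*, 1 was at least 1.15-fold lower and the other gave -0.21 with overlap of the groups. Of the 7 genes of the list on the array, 6 were tested, 2 rose, 3 fell, and 1 did not pass, with a median of -0.26.

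Receptors for collagen and laminin held 5 rises, 8 falls, and 1 gene that did not pass among 14 tested of 16, with a median of -0.41. Over all genes, 70.5% were called. *Itgb1*, the integrin beta chain that all collagen-binding integrins share, fell by 0.84 (limma adjusted p 1.90e-05). Its partners differed in direction, *Itga1* (the alpha chain with a preference for type IV collagen) falling by 0.55 and *Itga2* rising by 0.30, the latter 0.062 with the median scaling. Of the discoidin domain receptors, tyrosine kinases that bind collagen, *Ddr1* fell by 0.51 and *Ddr2* rose by 1.29 on the log2 scale. *Itga6*, a laminin receptor chain, rose by 2.14. *Itga3*, another, fell by 3.14, and its other probe, not well above background in IG27 cells, was at least 2.17-fold lower. *Dag1*, encoding dystroglycan, fell by 0.86. *Itga10* gave 1.73 at the brighter probe and -0.39 at the other, so its direction depends on the probe.

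Proteases that cut basement membrane and their inhibitors gave 5 rises and 4 falls among 10 tested of 18, with 1 that did not pass and a median of 0.29. *Mmp2*, a gelatinase that degrades type IV collagen, was -0.62, -0.72, and -0.59 in the WT arrays and 1.31, 1.35, and 1.44 in the IG27 arrays. It rose by 2.01 (limma adjusted p 1.01e-06). *Mmp9*, the other gelatinase, was not well above background at either of its 2 probes. *Timp4* rose by 1.71 and *Mmp11* by 1.55, whereas *Mmp19* fell by 2.66, *Mmp15* by 1.27, and *Timp2* by 0.29 on the log2 scale. The call of *Timp2* was lost without WT replicate 1 (-0.27), without IG27 replicate 2 (-0.23), and without IG27 replicate 3 (-0.27).

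The other collagen genes held both rises and falls. Of 11 fibril-forming collagen genes, 8 were tested, of which 5 rose and 3 fell, with a median of 0.65. *Col3a1* rose by 1.57 and *Col2a1* by 2.01, and *Col11a1* rose by 2.66 although only 1 of 3 WT arrays was well above background and its other probe was not in either group. *Col5a1* fell by 1.12, *Col11a2* by 1.10 (0.04 at its other probe), and *Col1a1* by 0.92 on the log2 scale. Of 25 other collagen genes, 18 were tested, 9 rose, 3 fell, and 6 did not pass, with a median of 0.72. *Col8a1*, a network-forming collagen like type IV, was -6.29, -6.24, and -6.02 in the WT arrays and 3.76, 3.63, and 3.60 in the IG27 arrays. WT cells gave no signal well above background, so the gene passed the filter through the IG27 arrays alone. As a bound, *Col8a1* was at least 691-fold higher in IG27 cells. *Col6a3* was at least 19.3-fold higher with 1 of its 2 probes, the other not being well above background, and *Col9a1* rose by 4.07, from WT values spread by an SD of 2.11 and well above background on 1 of 3 arrays, while its other probe was not in either group. *Col6a2* fell by 1.58, *Col6a1* by 0.82, and *Col7a1* by 0.30 on the log2 scale. With the same narrower filter, 7 of these other collagens were called, 4 higher and 3 lower.

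Transforming growth factor beta is a known inducer of type IV collagen synthesis in many cells. Of 18 genes of its signaling, 16 were tested, 5 rose, 9 fell, and 2 did not pass, with a median of -0.42. *Tgfb1*, the ligand, rose by 1.09 (limma adjusted p 5.19e-05). *Tgfbi*, a matrix protein named for its induction by the ligand, was 4.21, 4.27, and 4.31 in the WT arrays and -1.02, -0.77, and -1.02 in the IG27 arrays, and fell by 5.20 (limma adjusted p 1.29e-07). *Ccn2* rose by 2.51 on the log2 scale. *Ltbp4* fell by 1.52 on the log2 scale, and *Ltbp3* rose by 0.40 (0.16 with the median scaling, no longer called).

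**Figure D3:**
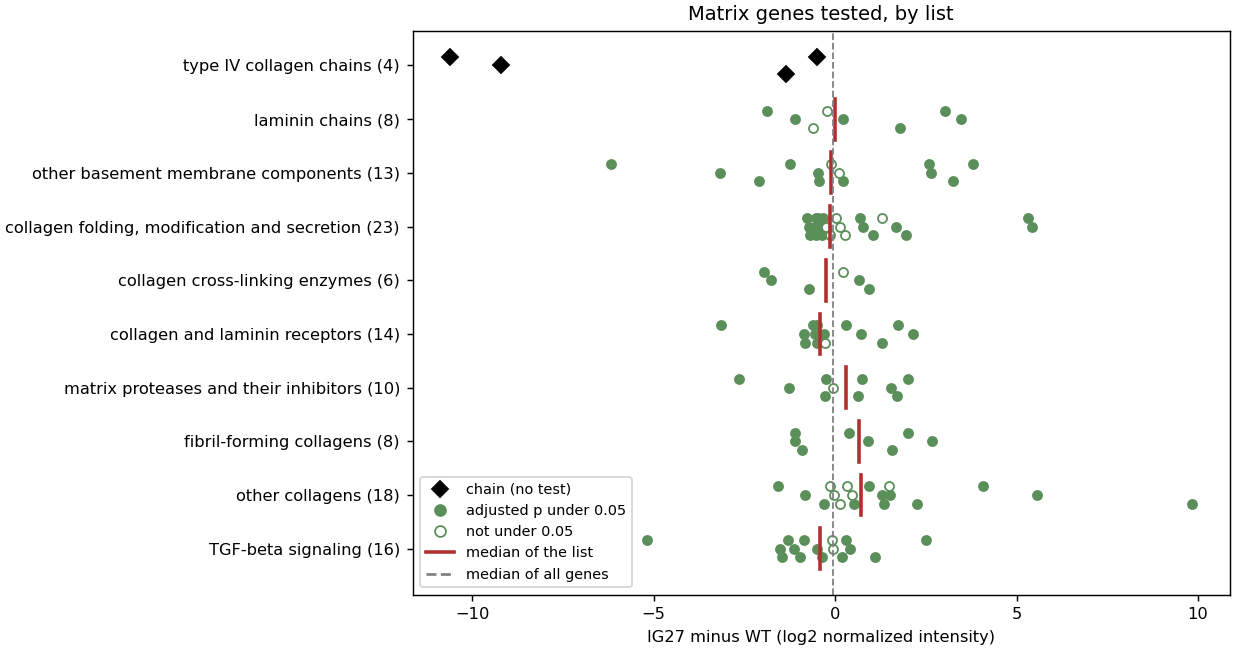
Difference of IG27 minus WT in log2 normalized intensity for the tested genes of each list (number tested in parentheses). Filled circles have a limma adjusted p under 0.05 and open circles do not, diamonds are the type IV collagen chains, which carry no test, red bars are list medians, and the dashed line is the median of all genes at -0.07. *Col4a1* is at -10.62 and *Col4a2* at -9.22, from IG27 values not well above background. Both were chosen for their fall, so their place left of the other lists is no result.

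The genes around each pair on the chromosome were taken as the 10 on either side, in the order of the RefSeq annotation. Around *Col4a1* and *Col4a2* on chromosome 8, 14 neighbors were tested, 13 fell, and 1 rose, with a median of -0.79. This stands beside a median of -0.67 for the 769 tested genes of chromosome 8, of which 571 were lower and 68 higher in IG27 cells. *Irs2*, the immediate neighbor on the side of *Col4a1* and an adaptor of the insulin receptor, was 3.21, 3.17, and 3.10 in the WT arrays and 0.90, 0.79, and 0.66 in the IG27 arrays. It fell by 2.38 (limma adjusted p 1.20e-06). *Rab20*, the immediate neighbor on the other side, was not well above background. *Spaca7* fell by 4.09 and *Sox1* rose by 0.77. The part that the lower signal along chromosome 8 had in the values of *Col4a1* and *Col4a2* was not tested.

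Around *Col4a3* and *Col4a4* on chromosome 1, 12 neighbors were tested, 7 rose, 2 fell, and 3 did not pass, with a median of 0.25 against -0.01 for the 847 tested genes of the chromosome. *Ap1s3* was at least 4.62-fold higher and *Dock10* at least 6.41-fold higher in IG27 cells, although the other probes of both genes were not well above background. *Ccl20* was at least 2.65-fold higher. *Ap1s3*, *Dock10*, and *Ccl20* were well above background on no WT array and passed the filter through the IG27 arrays alone. They count among the 7 rises and in the median of this locus. The immediate neighbors *Rhbdd1* and *Mff* differed by 0.26 and -0.26, the former 0.023 with the median scaling and no longer called without any 1 of the WT arrays (0.24 to 0.27). *Wdfy1* gave -0.29 at its brightest probe and -0.01 and 0.06 at the others, and its call was lost without IG27 replicate 1 (-0.27). Around *Col4a5* and *Col4a6* on chromosome X, 14 neighbors were tested, 1 rose, 9 fell, and 4 did not pass, with a median of -0.54 against -0.59 for the 513 tested genes of the chromosome. The immediate neighbors *Atg4a* and *Irs4* fell by 0.60 and 0.56. *Kcne1l* was at least 35.8-fold higher, *Mid2* fell by 2.26 (its other probe not being well above background), and *Tsc22d3* by 1.60 on the log2 scale.

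**Figure D4:**
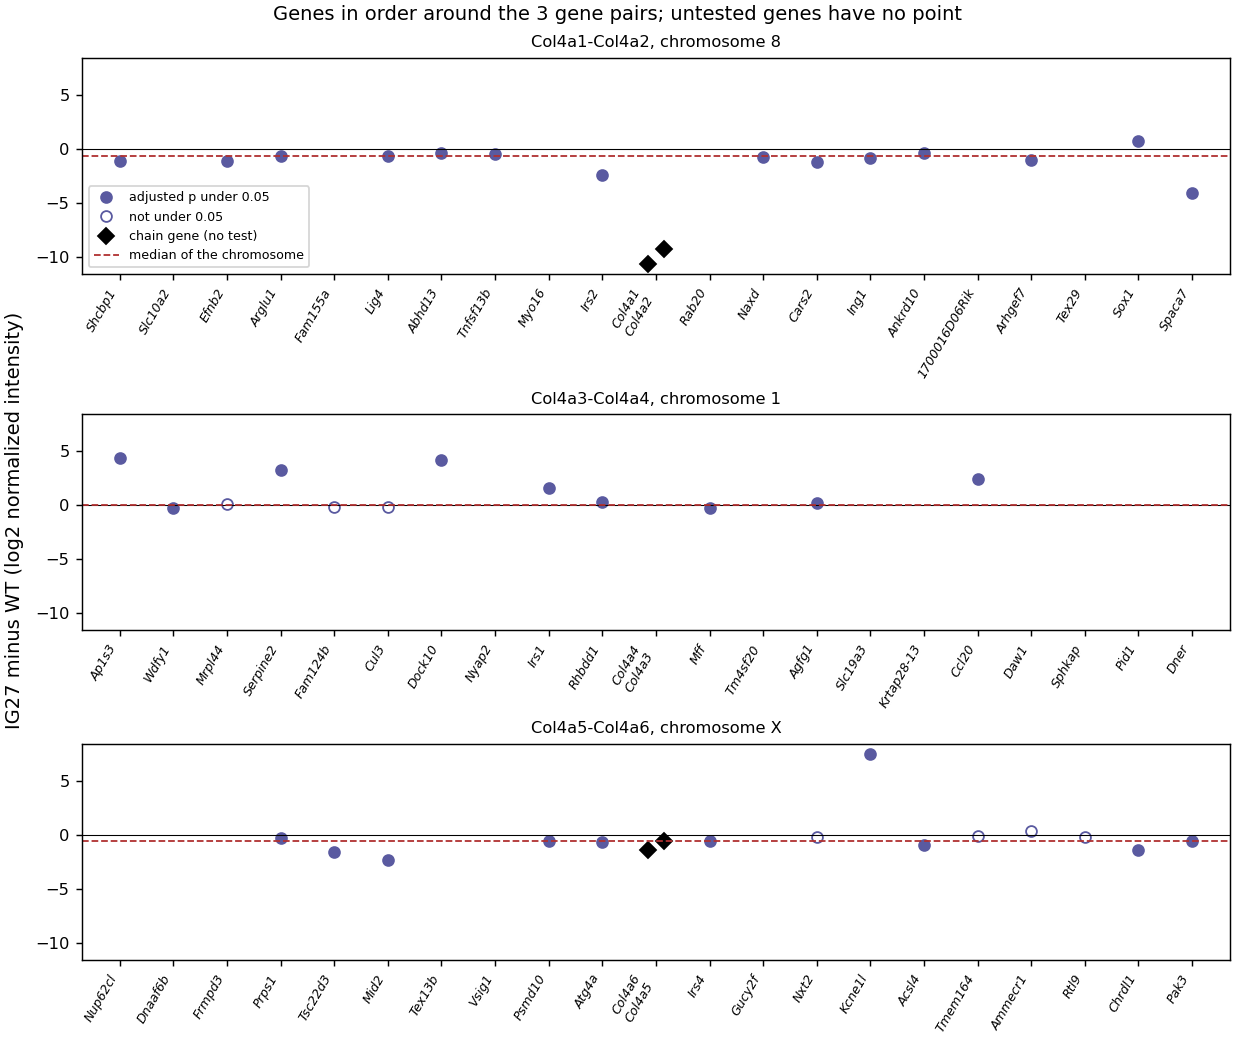
Difference of IG27 minus WT in log2 normalized intensity for the genes on either side of each pair, in chromosome order and not to scale. Filled circles have a limma adjusted p under 0.05, open circles do not, diamonds are the chains, and the dashed line is the median of the chromosome. *Col4a1* and *Col4a2* were chosen for their fall, so their place below the neighbors is no result. Their IG27 values were not well above background. Of the neighbors, *Spaca7* (-4.09) and *Irs2* (-2.38) were the lowest.

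Cell type markers were read beside these values. Glial markers were mixed. Of 7 astrocyte markers, 6 were tested, 2 rose, 3 fell, and 1 did not pass. *Gfap* was well above background on all flagged arrays and differed by -1.07 (0.19 at its other probe), *Aldh1l1* fell by 1.72, and *Slc1a2* fell by 1.03 on the log2 scale. *Slc1a3* was not well above background on any WT array and was at least 20.6-fold higher in IG27 arrays, *S100b* rose by 4.93, and *Aqp4* gave 0.12. Of 8 oligodendrocyte lineage markers, 4 rose, 2 fell, and 2 did not pass, *Pdgfra* rising by 2.36, *Olig2* by 1.51, and *Olig1* by 1.48 and *Sox10* falling by 0.37. Endothelial cells and pericytes are main sources of type IV collagen in the brain. Endothelial markers summed, as linear normalized intensity, to 0.191 to 0.214 in WT arrays and 3.36 to 3.37 in IG27 arrays. Of these 8 markers, 3 were tested, *Kdr* at least 134.8-fold higher, *Flt1* at least 39.6-fold higher, and *Pecam1* -0.27 (not called without WT replicate 1 or 2 or without IG27 replicate 1 or 2, at -0.28 to -0.20), whereas *Cdh5*, *Tek*, *Cldn5*, *Emcn*, and *Tie1* were not well above background in either group. Pericyte markers summed to 13.2 to 13.5 in WT and 7.85 to 8.18 in IG27 arrays, with 2 rises and 1 fall among 3 tested of 6. *Pdgfrb*, which gave most of this sum, fell by 1.16, *Anpep* rose by 5.08, and *Notch3* gave 0.35, a call kept in 8 of 17 other settings and lost without WT replicate 1 or without any 1 of the IG27 arrays (0.32 to 0.39). Fibroblast markers summed to 54.6 to 55.5 in WT and 22.7 to 23.1 in IG27 arrays, with 3 rises and 2 falls among 5 tested of 7. *Pdpn*, which gave most of the WT sum, fell by 1.93 and *Twist2* by 1.59 on the log2 scale, whereas *Dcn* was at least 3.32-fold higher, *Fap* at least 2.57-fold higher, and *Postn* rose by 0.51. Neuron markers, 3 tested of 5, held 1 fall (*Tubb3* by 2.63), microglia and leukocyte markers, 4 tested of 6, held 3 rises and 1 fall, and epithelial markers, 3 tested of 6, held 1 rise (*Epcam*, at least 15.4-fold higher) and 2 falls. The part of other cell types in the loss of *Col4a1* and *Col4a2* signal was not tested.

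As for the arrays themselves, between 33294 and 34633 probes (58.8% to 61.2% of 56605) were well above background on each complete array, and no spot was saturated. The number of arrays limits the precision. *H3f3a*, the gene the plasmid carries, was 6.96, 6.70, and 6.85 in the WT arrays and 6.61, 6.52, and 6.61 in the IG27 arrays. It differed by -0.26 (limma adjusted p 0.0237) at the brightest of its 3 probes. Whether this probe reads the plasmid's copy, the cell's own, or both was not checked, so the value does not check the labels.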

How the data were processed

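RNA of 3 WT and 3 IG27 samples of OS3 cells was hybridized to 1-color Agilent mouse arrays (1 slide, Cy3). The authors scanned the slide and extracted spots with Feature Extraction (version 9.1 per the labels, 10.7.3.1 per the file headers), and the deposited processed signal is an intensity on a linear scale, with no scaling between arrays. A deposited table of probe values gives the same intensities. The scanner output of IG27 replicate 2 holds 285 of 62976 spots, so its values came from the table, whose column equaled all 255 of its single-spot probes (relative tolerance 1e-04). In that table WT replicates 2 and 3 are exchanged relative to the scanner output, whose labels were used.

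Values were log2 of the deposited intensity minus the 75th percentile of each array. Control and outlier spots (107 to 210 per complete array) were left out. Probes were named through RefSeq accessions with a table of GRCm38.p6 (29339 of 29638 with the prefix NM), used for names, chromosomes, and gene order. A probe was tested if well above background on every flagged array of at least 1 group, and the brightest probe stood for a gene. Differences were fitted with limma (version 3.58.1, R 4.3.3; lmFit, eBayes, two-sided, no block) over all 14898 genes, p-values being adjusted after Benjamini-Hochberg with 0.05 as the threshold. The script was tested on simulated data.

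For a gene not well above background in a group, the fold is a bound, the bright group's mean against, per array, the higher of the lowest well-above-background signal and the probe's own. IG27 replicate 2, without flags, took the highest such signal of the other IG27 arrays. All such bounds hold for the main processing only and were not recomputed under the alternatives. The samples were not paired by replicate number in this fit, and a replicate block was run as an alternative. Genes were named by a rule: all 6 chains, named binding partners, up to 3 called rises and 3 called falls per list, the genes next to each pair, and the 5 nearest profiles. One gene under this rule is not reported here. The members and lists were chosen with earlier results of these data known. Alternatives covered the scaling, background correction, filter, probe choice, blocks, and leaving out each array.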

Additional observations from a re-analysis of the deposited data

How the results depend on the processing

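Under the 18 other settings, between 8946 (slide row as a block) and 10982 genes (median of the array as the scale) were called, against 10501. With the median scale, 3026 were higher and 7956 lower, so that 27.6% of the calls were higher against 43.3%, and the median difference of all genes was -0.31 against -0.07. The replicate block called 10309 genes. Deviations of same-numbered arrays correlated by 0.012, 0.040, and 0.076, and those of arrays with different numbers by -0.094 to 0.059. These few small correlations cannot decide whether the numbers pair the samples. Among the 100 named genes with a test, the replicate block ended 1 call (*Pecam1*) and the slide row block 8 (*Hspg2*, *Itgam*, *Krt5*, *Notch3*, *Pecam1*, *Rhbdd1*, *Timp2*, and *Wdfy1*).

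*Col4a1* ran from -10.86 to -7.28 and *Col4a2* from -9.86 to -6.28 over 17 settings. Both differences were smallest with a normexp correction (offset 50) of the 5 complete arrays, and the part of the offset in this was not separated. *Col4a6* ran from -1.66 to -0.41 and the brighter *Col4a5* probe from -0.77 to -0.25. With probes well above background on every complete array, 6 other basement membrane components and 7 other collagens were called, against 11 and 12. Leaving out 1 array at a time gave 9799 to 10162 called genes.

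Directions turned with the median scale for *Hspg2* (-0.020), *Lamc1* (-0.014), and *Itgam* (-0.036). *Itga10* was -0.37 on the complete arrays and without IG27 replicate 2, -0.38 without IG27 replicate 1, and -0.44 without IG27 replicate 3 (up to 1.83 without WT replicate 3), since the other probe was then the brightest. Of the 100 named genes, 88 kept their direction and side of the threshold in every setting in which they were tested. With probes well above background on every complete array, only 78 of them were tested. The setting of complete arrays and the one without IG27 replicate 2 use the same arrays. The chains and the nearest profiles are not among the 100. The slide row block rests on WT replicate 2, the WT array in row 2 with all IG27 arrays. Signal near background limits what can be said of *Col4a3*, *Col4a4*, and the IG27 level of the chains.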
